A study of Mus musculus with 4 samples.

Results

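The genes described here are the named subunits, activators, inhibitor and assembly chaperones of the proteasome in the mouse heart. They were the protein coding genes of the deposited table whose symbol is Psm followed by a letter from a to g and a number. This gave 48 of the 36814 rows, all 48 of them tested by the authors, and 43 of them averaged at least 1 RPKM over the groups. RPKM is the number of reads per length of transcript and per sequencing depth. RNA was sequenced from ventricles, freed of their atria, of mice at postnatal day 14. There were 2 wild type controls and 2 Hnrnpu mutants, on a mixed background of C57BL/6 and 129 S4, and each group held 1 male and 1 female. The mutants carried a conditional Hnrnpu allele and the Ckmm-Cre transgene, whose muscle creatine kinase promoter drives the recombinase in heart and skeletal muscle cells. Other cells of the ventricle keep the gene. The labels call the controls wild type and name no further allele for them. They do not say whether the samples came from separate litters, so p-values reach no further than these samples.

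The proteasome is the protease that breaks down ubiquitin-tagged proteins in the cytosol and nucleus. Its barrel-shaped core particle is built of alpha rings (Psma genes) around beta rings (Psmb genes), and some of the beta subunits cut the chains. A regulatory particle binds the end of the barrel: its base holds a ring of ATPases (Psmc genes) that unfold the substrate, and its lid, made of Psmd proteins, removes the ubiquitin. Activators of the Psme family can bind the core in place of the regulatory particle, and Psmg chaperones help build the core. In striated muscle the proteasome takes part in the turnover of contractile proteins and in atrophy. When its activity falls short, mammalian cells are known to raise its genes together through the transcription factor Nfe2l1.

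Levels are the authors' own group values, 1 for the controls and 1 for the mutants, so none of them has a spread. The error of each difference was read back from the authors' own test: it is the standard error at which a normal test of the deposited log2 fold change would give the deposited p-value. By the step size of small RNA genes, the depth of the mutant group was 2.44 times that of the control group, if values were scaled by mapped reads. With exon lengths of a later annotation, the 43 genes averaging at least 1 RPKM came to about 92 to 7362 reads in control and 131 to 33000 reads in mutant. Hnrnpu itself was at 32.7 RPKM in the controls against 15.2 in the mutants, which did not pass the authors' test (deposited p = 0.0613, adjusted p = 0.438). All 8 cardiomyocyte markers were present, from 52.2 to 1840 RPKM in control and from 16.3 to 1640 RPKM in mutant. Of these 7 were below control, none was called, and their sum was 7350 RPKM in the controls against 5670 in the mutants; Ryr2, at 52.2 RPKM in the controls against 16.3 in the mutants, had the smallest p (0.0461 in the authors' deposited table). Of 4 fibroblast markers 3 were above control with a median log2 fold change of 1.06, none was called, and their sum was 402 RPKM in the controls against 504 in the mutants. Among them Tcf21 was at 8.47 RPKM in the controls against 24.0 in the mutants (p = 0.00278 in the authors' deposited table) and Pdgfra at 5.32 RPKM in the controls against 11.6 in the mutants (p = 0.0296 in the authors' deposited table). Of 4 endothelial markers 1 was above control, none was called, and their sum was 99.8 RPKM in the controls against 89.2 in the mutants. The atrial markers Myl7, Myl4 and Sln were at 27.9, 4.28 and 6.46 RPKM in the controls against 17.7, 6.85 and 1.66 in the mutants, none of them called. The part of these markers in the levels of the proteasome genes was not tested.

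For the regulatory particle, all 20 genes chosen by name, 3 of them base chaperones, had transcripts above control in the mutant. Their median log2 fold change was 0.93, beside the fibroblast median of 1.06 and the cardiomyocyte median of -0.31. Of 8 proteasome proteins outside the naming rule, 5 were above control and 3 below. In the constitutive core, transcripts were above control in 11 of 14 genes, with a median log2 fold change of 0.66. Below control were 3 of 4 Psmg genes, 2 of the 3 inducible catalytic genes (Psmb8 and Psmb9, but not Psmb10) and 2 of the 4 activator genes (Psme1 and Psme2). Of these genes below control, the 95% interval left out 0 in Psme1 alone, and differences between the groups of genes were not tested. A single gene passed the authors' test (adjusted p below 0.05), the lid gene Psmd8, which was higher in the mutant. That is 2.08% of the 48 genes, against 2.03% of all 24454 tested rows called higher, so the share of calls was close to the background. Among protein coding rows averaging at least 1 RPKM the share called higher was 3.24%. None was called lower, against 1.48% of all tested rows and 1.81% of those protein coding rows. A lower level with an unadjusted p below 0.05 was found in 1 gene, or 2.08%, against 6.2% of all tested rows and 7.08% of those protein coding rows.

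A larger share of the proteasome genes than of the background lay moderately above control. Among protein coding rows averaging at least 1 RPKM, 54.3% were above control and the median log2 fold change was 0.07. Of the 48 proteasome genes 36 were above control, with a median of 0.68. Levels matter for this comparison, so a band from 5 to 50 RPKM was also compared: there 60.8% of 3981 protein coding rows and 30 of 33 proteasome genes were above control, with medians of 0.20 and 0.86. The band was set on the mean of both groups, so the mutant level also decided which genes entered. Psmd11 and Psme3 entered it with control levels under 5 RPKM, and Psmg1 was left out with a control level of 5.64 RPKM. An unadjusted p below 0.05 with a higher level was found in 9 of the 48 genes, or 18.8%, against 6.4% of all tested rows and 9.32% of protein coding rows averaging at least 1 RPKM. A fold of at least 1.5 was found upward in 60.4% of the 48 proteasome genes and downward in 6.25%. Among protein coding rows averaging at least 1 RPKM the shares were 23.5% and 18.7%. Of the 43 proteasome genes at that level, 29 were upward and 2 downward by that fold. In the band from 5 to 50 RPKM, a higher level with an unadjusted p below 0.05 was found in 8 of 33 proteasome genes and 498 of 3981 protein coding rows. An upward fold of at least 1.5 was found there in 25 of 33 and 1162 of 3981. These are counts over genes that share the same 4 animals, and no test was made over them as a group.

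**Figure D1:**
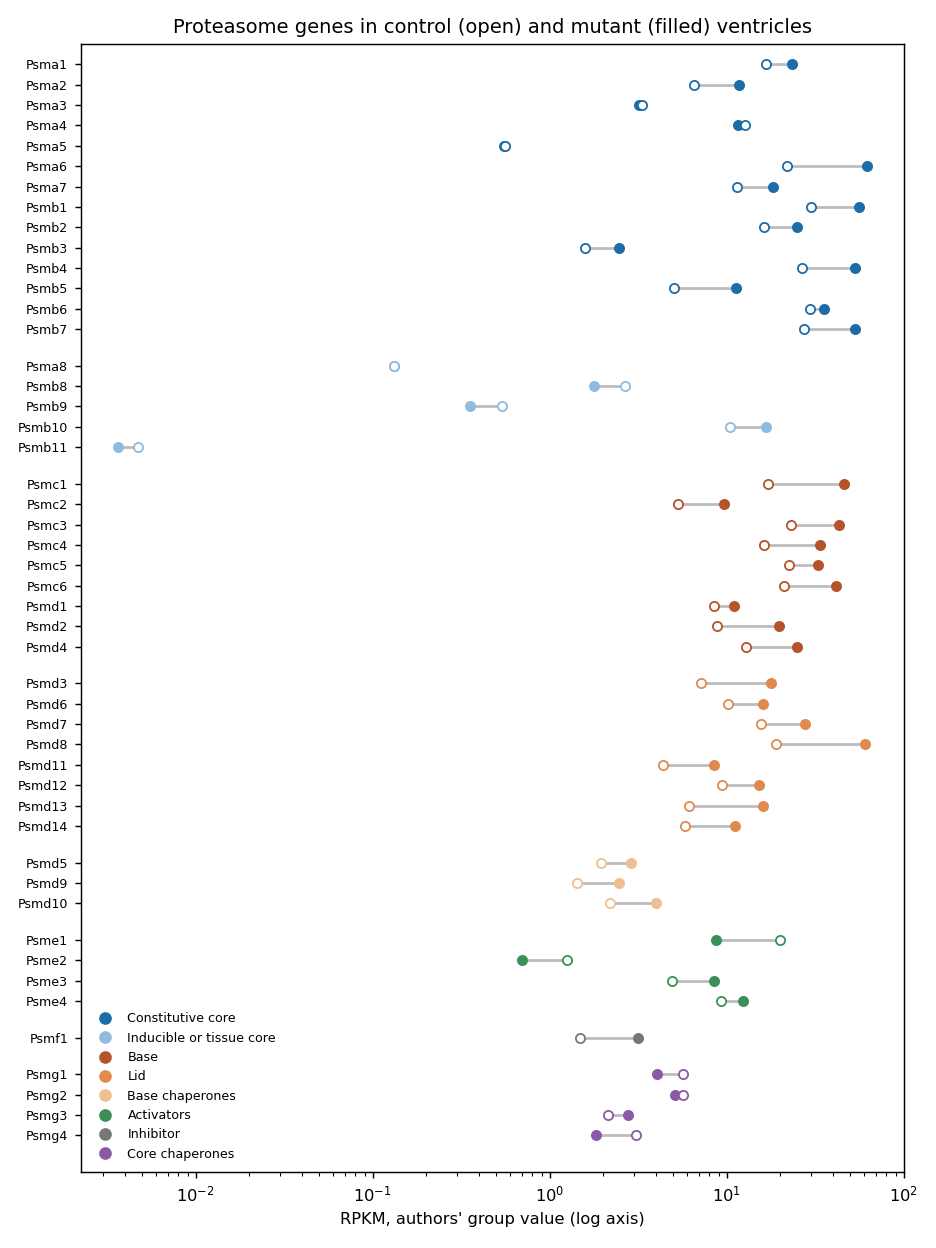
RPKM of the 48 proteasome genes in control (open circles) and mutant (filled circles) ventricles on a log axis, 1 authors' group value each, ordered and coloured by role. The filled circle lies to the right in every base, lid and base chaperone gene, and to the left in Psme1, Psme2, Psmb8 and Psmb9.

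The core particle is described first. Its alpha ring genes, which form the gate and the docking surface of the barrel, ranged in control from 0.556 RPKM (Psma5) to 22.0 RPKM (Psma6) among the 7 constitutive ones. Psma6 (chromosome 12, 56485209 to 56519441, mm9) was at 22.0 RPKM in the controls against 62.0 in the mutants, the highest mutant level of the 48 genes. The authors' deposited table gives this as 2.82-fold with p = 0.00406 and adjusted p = 0.0881, so it missed the threshold, and its 95% interval ran from 0.48 to 2.52 on the log2 scale. Psma2 followed with 6.52 RPKM in the controls against 11.8 in the mutants, a log2 fold change of 0.86 with p = 0.0911 in the authors' deposited table. Psma4 was at 12.7 RPKM in the controls against 11.6 in the mutants, and Psma3 at 3.34 RPKM in the controls against 3.20 in the mutants. Those small differences had wide intervals: that of Psma4 ran from -1.09 to 0.82 on the log2 scale. Psma1 was at 16.6 RPKM in the controls against 23.3 in the mutants, and Psma7 at 11.5 RPKM in the controls against 18.3 in the mutants.

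Among the constitutive beta ring genes all 7 were above control, by log2 fold changes from 0.26 (Psmb6) to 1.16 (Psmb5), and none passed the test. Psmb5 codes for the subunit with chymotrypsin-like activity, the target of the drug bortezomib (chromosome 14, 55232644 to 55236851, minus strand, mm9). It was at 5.06 RPKM in the controls against 11.3 in the mutants, 2.23-fold (p = 0.0354 and, after adjustment, p = 0.333 in the authors' deposited table). Psmb4, a structural subunit, was at 26.5 RPKM in the controls against 53.2 in the mutants (p = 0.0554 and, after adjustment, p = 0.416 in the authors' deposited table). Psmb1, Psmb2 and Psmb3, which do not cut, were at 29.8, 16.3 and 1.58 RPKM in the controls against 55.7, 25.1 and 2.46 in the mutants. Psmb7, which has trypsin-like activity, was at 27.5 RPKM in the controls against 52.8 in the mutants. Psmb6, with caspase-like activity, stood at 29.7 RPKM in the controls against 35.5 in the mutants, so the genes of the catalytic subunits did not have the same fold, although their intervals overlapped.

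The inducible subunits replace the catalytic ones in the immunoproteasome, a form found in immune cells and in cells exposed to interferon gamma. Psmb8, the counterpart of Psmb5, was at 2.66 RPKM in the controls against 1.79 in the mutants, and Psmb9, the counterpart of Psmb6, at 0.535 RPKM in the controls against 0.357 in the mutants. Psmb10, the counterpart of Psmb7, was at 10.5 RPKM in the controls against 16.7 in the mutants. None of these passed the authors' test (deposited p = 0.362, 0.410 and 0.186), and all 3 intervals included 0. The whole of Psmb10 lies within Gm16156 on the other strand, at 18.6 RPKM in the controls against 26.2 in the mutants, and without strand the reads of both cannot be told apart.

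Set against their constitutive counterparts per length, the ratio of Psmb8 to Psmb5 was 0.526 in control and 0.158 in mutant. The ratio of Psmb9 to Psmb6 was 0.0180 in control and 0.0101 in mutant, and that of Psmb10 to Psmb7 was 0.382 in control and 0.316 in mutant. Summed over the 3 pairs, the inducible genes held 18.0% of the RPKM in control and 15.9% in mutant. Their own sum was 13.7 RPKM in the controls against 18.8 in the mutants, of which Psmb10 made up 10.5 and 16.7. The lower share was thus not a lower sum of the inducible genes. All 3 ratios were lower in the mutant, but they rest on 1 value per group and have no error. In bulk tissue fewer cells of a type and less RNA per cell cannot be told apart. Of 10 leukocyte markers 9 were above control and none was at 0, their sum was 51.9 RPKM in the controls against 156 in the mutants, and Lyz2 rose from 18.4 to 90.5 RPKM (adjusted p = 0.00209, the authors' deposited value). The part of these markers in the levels of the inducible subunits was not tested.

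The tissue-specific core genes were near the limit of detection. Psmb11, a subunit of cortical thymus cells, was at 0.00473 RPKM in the controls against 0.00365 in the mutants, which by the read steps and a later gene length comes to about 1 read in control and 2 reads in mutant. Psma8, the alpha subunit of the testis proteasome, was listed at 0.132 RPKM in both groups. No difference could be detected for either at this depth.

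In the base of the regulatory particle the 6 ATPase genes were all above control, by log2 fold changes from 0.54 (Psmc5) to 1.43 (Psmc1). Psmc1 (chromosome 12, 101348396 to 101361574, mm9) codes for an ATPase whose tail opens the gate of the core. It was at 17.2 RPKM in the controls against 46.3 in the mutants, 2.69-fold in the authors' deposited table with p = 0.00581 and adjusted p = 0.112. Psmc4 was at 16.2 RPKM in the controls against 33.6 in the mutants (p = 0.0436 and, after adjustment, p = 0.371 in the authors' deposited table). Psmc2 stood at 5.32 RPKM in the controls against 9.67 in the mutants, and Psmc5 at 22.5 RPKM in the controls against 32.8 in the mutants. Psmc3 and Psmc6 were at 23 and 21.1 RPKM in the controls against 43.3 and 41.6 in the mutants. The sum over the 6 ATPases was 105 RPKM in the controls against 207 in the mutants, and the highest was 4.32 times the lowest in control and 4.79 times in mutant.

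The other base genes within the naming rule code for a pair of large scaffolds and a ubiquitin receptor. Psmd2, the scaffold that receives shuttle proteins, was at 8.83 RPKM in the controls against 19.8 in the mutants, a log2 fold change of 1.17 with an interval from 0.15 to 2.19 (p = 0.0247 and, after adjustment, p = 0.270 in the authors' deposited table). Psmd1, the other scaffold, had the smallest difference of the 20 regulatory particle genes chosen by name. It was at 8.52 RPKM in the controls against 11.0 in the mutants (p = 0.466 in the authors' deposited table). Psmd4, the ubiquitin receptor, was at 12.9 RPKM in the controls against 24.9 in the mutants without a call.

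The lid gave the call. Psmd8, a lid subunit that joins late in lid assembly in yeast (chromosome 7, 29959207 to 29965692, minus strand, mm9), rose from 19.1 to 60.8 RPKM. This was 3.18-fold, 1.67 on the log2 scale with a 95% interval from 0.63 to 2.71, and the authors' deposited adjusted p of 0.0473 lay just under the threshold. Psma6 came next by p, just outside it. No other row of the table overlaps Psmd8, and no near-identical copy of its coding sequence was found. Psmd13 was at 6.16 RPKM in the controls against 16.1 in the mutants (p = 0.00670 and, after adjustment, p = 0.123 in the authors' deposited table), and Psmd3 at 7.2 RPKM in the controls against 17.9 in the mutants (p = 0.0121 and, after adjustment, p = 0.177 in the authors' deposited table). Psmd14, the enzyme that cuts ubiquitin off the substrate, was at 5.81 RPKM in the controls against 11.2 in the mutants, 1.93-fold with p = 0.06 in the authors' deposited table. The row AL845291.1 overlaps Psmd14 on the same strand, and Gm12356, Sirt3 and Slc39a13 overlap Psmd3, Psmd13 and the ATPase gene Psmc3, so reads may be shared between them. The lid genes Psmd6, Psmd7 and Psmd12 were at 10.2, 15.7 and 9.42 RPKM in the controls against 16.1, 27.6 and 15.3 in the mutants. All 8 lid genes within the naming rule were at least 1.5-fold above control. The same held for 23.5% of the protein coding rows compared above and 1162 of 3981 in the band from 5 to 50 RPKM. Proteasome proteins outside that rule are given further below.

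Psmd5, Psmd9 and Psmd10, which bind the ATPases while the base is built, were all above control, with a median log2 fold change of 0.80 at low levels (1.42 to 2.19 RPKM in control). Psmd5, Psmd9 and Psmd10 were at 1.96, 1.42 and 2.19 RPKM in the controls against 2.87, 2.47 and 3.98 in the mutants. The core chaperones Psmg1 and Psmg2, partners that seed the alpha ring, were at 5.64 and 5.70 RPKM in the controls against 4.02 and 5.13 in the mutants. Psmg4 was at 3.09 RPKM in the controls against 1.83 in the mutants, and its partner Psmg3 at 2.14 RPKM in the controls against 2.76 in the mutants. The intervals of all 3 base chaperones and all 4 core chaperones included 0, the widest being that of Psmg4, from -2.16 to 0.64 on the log2 scale. The summed RPKM of the 4 chaperones over that of the 14 constitutive core genes was 0.0790 in control and 0.0375 in mutant.

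**Figure D2:**
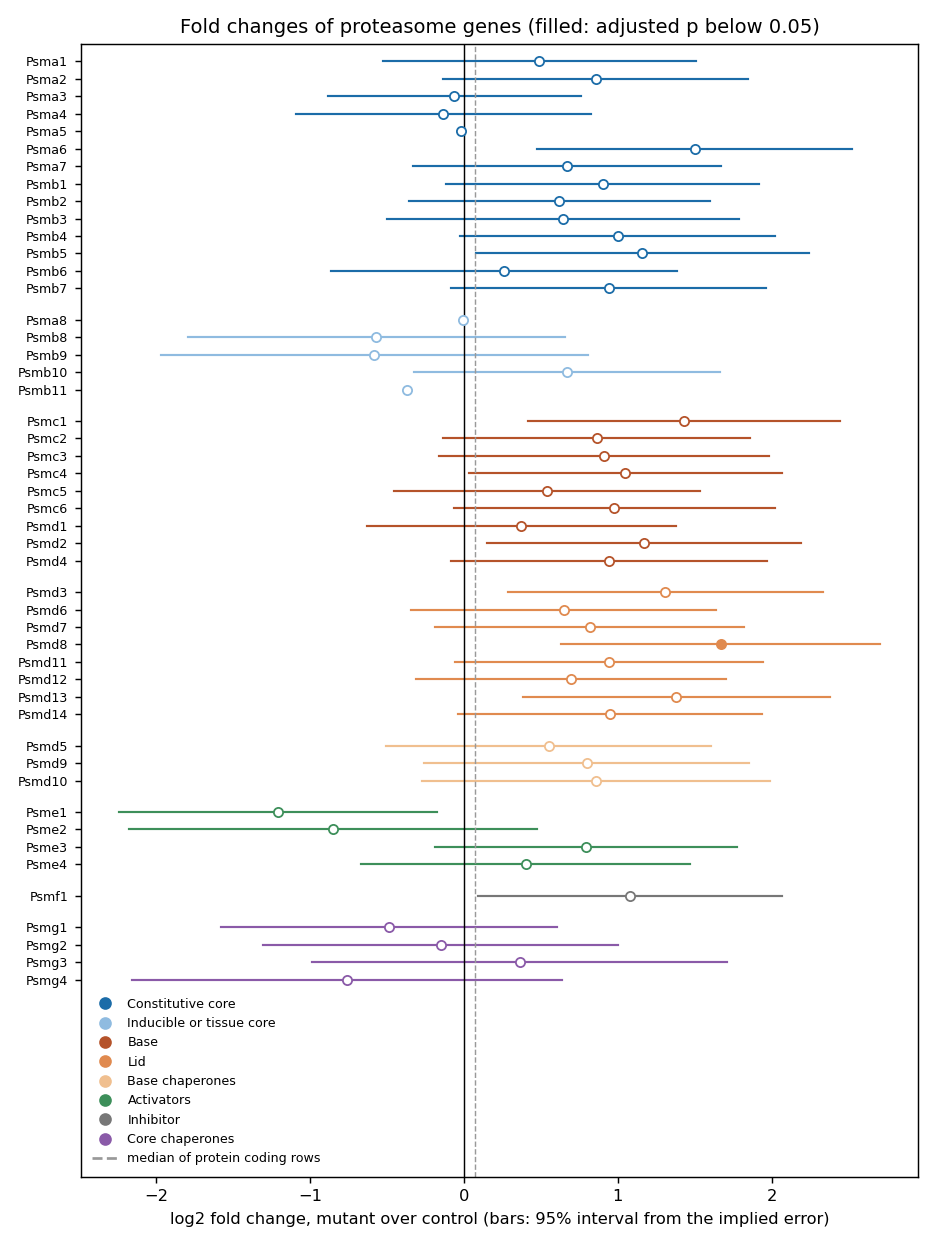
Log2 fold change of each proteasome gene with its 95% interval from the implied error, by role, with the adjusted call filled. Psmd8 is the single filled point; 9 intervals lie above 0, that of Psme1 lies below 0, 35 include 0, and Psma5, Psma8 and Psmb11 have no interval because their p was 1.

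Among the activators, the interferon-inducible pair lay below control and the others above. Psme1 codes for the alpha chain of the PA28 activator (chromosome 14, 56197319 to 56200218, mm9). It was at 20.0 RPKM in the controls against 8.67 in the mutants, 0.433-fold (p = 0.0220 and, after adjustment, p = 0.252 in the authors' deposited table), with an interval from -2.25 to -0.18 on the log2 scale. Psme2, the beta chain of the same ring and a close neighbour on chromosome 14, was at 1.26 RPKM in the controls against 0.697 in the mutants (p = 0.210 in the authors' deposited table). Psme3, the nuclear gamma form, was at 4.89 RPKM in the controls against 8.48 in the mutants, and Psme4, an activator linked to histone breakdown, at 9.31 RPKM in the controls against 12.3 in the mutants. The summed RPKM of Psme1 and Psme2 over that of the constitutive core was 0.101 in control and 0.0255 in mutant. That ratio leaves out Psme2b-ps, a copy of Psme2 described below. The Psme2 row held 5.35% of the sum with this copy in control and 4.68% in mutant. Psmf1, which codes for an inhibitor of the core in vitro, was at 1.49 RPKM in the controls against 3.15 in the mutants (p = 0.0325 and, after adjustment, p = 0.318 in the authors' deposited table).

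The size of these differences bears on what the authors' test called. The implied standard error ranged from 0.42 to 0.71 on the log2 scale over 45 genes, with a median of 0.52. Over protein coding rows averaging at least 1 RPKM the median was 0.53. With errors so alike across genes, the p-values and intervals are not shown to measure the spread of each gene between these animals. The smallest fold of any called row in the table was 3.03, and 24 of the 48 proteasome genes had a fold between 1.5 and 2.3. A missing call in that range therefore does not show that a gene was unchanged.

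**Figure D3:**
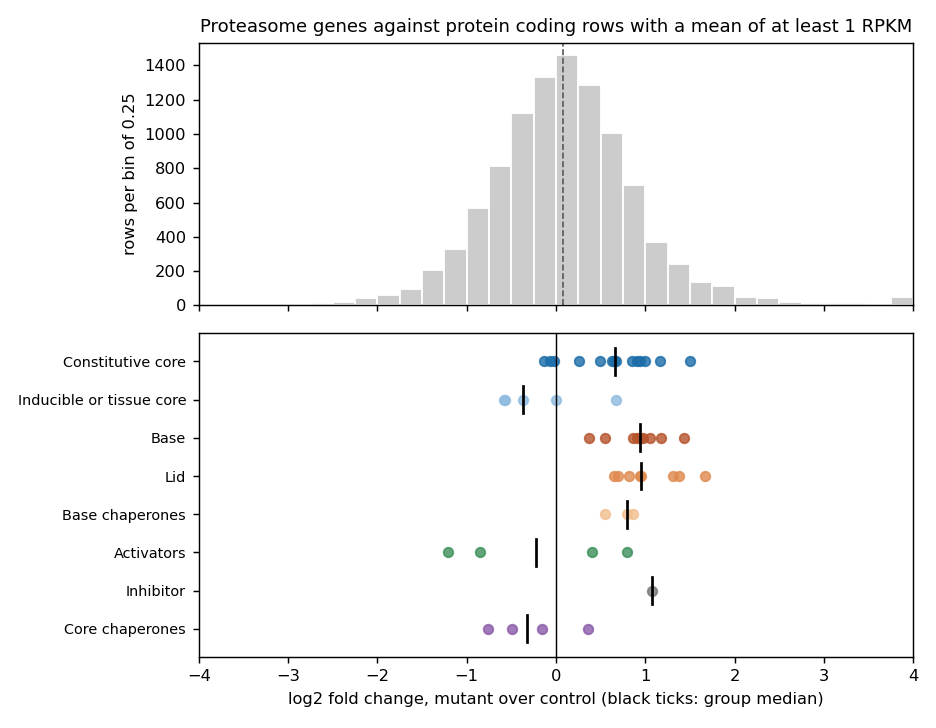
Upper panel, the number of protein coding rows averaging at least 1 RPKM in each bin of log2 fold change, with rows beyond 4 in either direction or listed at 0 in 1 group placed in the end bins and the median of 0.07 dashed. Lower panel, the proteasome genes by role with the median as a black tick; base, lid and base chaperone genes all lie above 0, and inducible core, core chaperone and activator medians lie below 0.

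Within each particle the subunits are built in equal number, but their transcripts were not listed at equal levels. In control the highest of the 14 constitutive core genes, Psmb1 at 29.8 RPKM, was 53.6 times the lowest, Psma5 at 0.556 RPKM, and in mutant this ratio was 113. Over base and lid the ratio was 5.24 in control and 7.2 in mutant. The 4 lowest constitutive core genes in control, Psma5, Psmb3, Psma3 and Psmb5, share a feature that the naming rule did not use: near copies elsewhere in the genome. In a later annotation (GENCODE M21) 10 of the 48 genes had another gene whose transcript matched at least 50% of their coding length at 95% identity or more, mostly processed pseudogenes, and in 8 of them such a copy was listed above 0 in the table.

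For Psma5, an alpha subunit, the copies Gm8394 and Gm12989 were together at 7.72 RPKM in the controls against 16.3 in the mutants, so the Psma5 row held 6.72% of the sum in control. Gm8394 matches the whole Psma5 coding sequence at 98.9% identity and was at 6.08 RPKM in the controls against 13.8 in the mutants (p = 0.0260 and, after adjustment, p = 0.279 in the authors' deposited table). The copies of Psma3 were together at 22.1 RPKM in the controls against 30.2 in the mutants, and the copy of Psma4, Gm6542, at 26.4 RPKM in the controls against 32.6 in the mutants. Gm14048, a copy of the lid gene Psmd11, rose from 4.91 to 15.5 RPKM (adjusted p = 0.0389, the authors' deposited value), while Psmd11 itself was at 4.39 RPKM in the controls against 8.44 in the mutants without a call. Psme2b-ps, a copy of Psme2 at 99.3% identity, was at 22.3 RPKM in the controls against 14.2 in the mutants. How the authors placed reads that match both a gene and its copy is not given in the sources used here, so these rows cannot be told apart with certainty.

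Counted with their copies, Psma3, Psma4 and Psma5, the 3 constitutive core genes below control, stood above it, with sums 1.31, 1.13 and 2.04 times those of control. All 14 constitutive core genes were then above control, with a median log2 fold change of 0.76, and so were the 9 of them that have no near copy, with a median of 0.86. Psme2 stayed below control with its copy, at 0.632-fold. These sums add RPKM over rows of different length and were not tested.

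**Figure D4:**
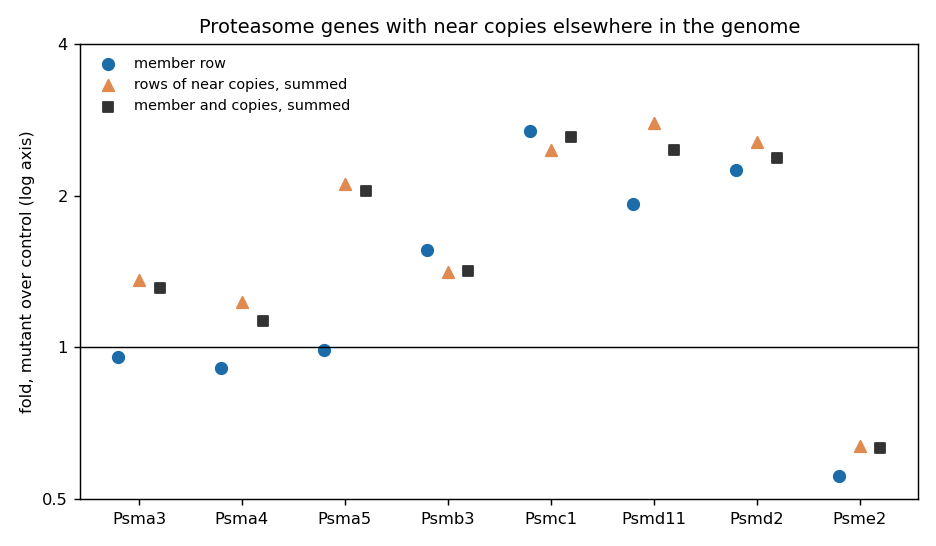
Fold of mutant over control for the 8 proteasome genes with a near copy listed above 0, shown for the gene's own row (circle), for the rows of its copies summed (triangle) and for both summed (square), on a log axis. Psma3, Psma4 and Psma5 lie just below 1 in their own row and above 1 in the sum, and Psme2 lies below 1 in each.

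Since most of the genes were above control, their promoters were read. Windows from 250 bases before to 50 bases after the start were at hand for 40 of the 48 genes (RefSeq, GRCm38.p6, 43 windows). They were searched on both strands for an antioxidant response element, TGACNNNGC, the type of site bound by Nfe2l1 and Nfe2l2, for the CCAAT box, for TGATGNAAN, a site for Atf4 with its partners, and for GAAA followed by any 2 bases and GAAA, a site for interferon regulatory factors. The motif ACTTCCG, a type of site bound by ETS factors, was added after the sequences had been read, and no spelling shares bases with another one in the windows below. The windows of Psmd8, Psmc1 and Psmd13 are printed because these genes had the smallest p among those with a single window, that of Psmb5 because it had the smallest p of the 6 genes with an antioxidant response element, and that of Psme1 as the gene with the smallest p below control. Capitals mark every match to any of the 5 spellings.
Psmd8: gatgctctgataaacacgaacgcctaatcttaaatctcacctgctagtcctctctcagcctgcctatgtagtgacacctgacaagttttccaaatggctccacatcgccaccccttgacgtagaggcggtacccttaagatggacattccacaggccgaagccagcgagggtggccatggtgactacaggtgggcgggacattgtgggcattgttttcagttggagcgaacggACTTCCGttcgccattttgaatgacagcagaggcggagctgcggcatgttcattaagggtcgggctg
Psmc1: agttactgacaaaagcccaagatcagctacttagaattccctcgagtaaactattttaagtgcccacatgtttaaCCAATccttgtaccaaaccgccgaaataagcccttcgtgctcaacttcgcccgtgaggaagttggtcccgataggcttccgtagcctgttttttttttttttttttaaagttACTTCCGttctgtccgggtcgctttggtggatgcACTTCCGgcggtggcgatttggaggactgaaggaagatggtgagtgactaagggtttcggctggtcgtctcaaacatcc
Psmd13: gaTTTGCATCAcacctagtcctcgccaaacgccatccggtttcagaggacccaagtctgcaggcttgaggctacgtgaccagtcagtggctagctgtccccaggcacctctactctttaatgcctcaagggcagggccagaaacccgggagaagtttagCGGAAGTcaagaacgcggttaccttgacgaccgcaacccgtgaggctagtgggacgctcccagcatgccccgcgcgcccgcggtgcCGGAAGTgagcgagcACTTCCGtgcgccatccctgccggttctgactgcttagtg
Psmb5: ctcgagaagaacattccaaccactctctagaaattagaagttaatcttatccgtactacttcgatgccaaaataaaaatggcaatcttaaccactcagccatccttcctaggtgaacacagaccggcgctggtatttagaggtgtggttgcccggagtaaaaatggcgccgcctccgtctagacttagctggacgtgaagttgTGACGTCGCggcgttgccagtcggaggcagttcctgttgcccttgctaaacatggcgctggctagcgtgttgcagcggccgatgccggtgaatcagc
Psme1: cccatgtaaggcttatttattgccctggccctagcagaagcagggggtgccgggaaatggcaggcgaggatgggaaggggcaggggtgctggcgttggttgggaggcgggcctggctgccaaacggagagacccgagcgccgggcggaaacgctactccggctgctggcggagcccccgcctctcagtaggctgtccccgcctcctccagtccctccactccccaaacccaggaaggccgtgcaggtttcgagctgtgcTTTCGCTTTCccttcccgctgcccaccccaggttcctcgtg
They lie at chr7:29180624-29180923 (minus strand), chr12:100109952-100110251 (plus strand), chr7:140882144-140882443 (plus strand), chr14:54617946-54618245 (minus strand) and chr14:55578244-55578543 (plus strand).

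Psmd8 holds 1 match, ACTTCCG, which begins 17 bases before the start. Psmc1 holds that motif at 63 and 29 bases before the start and a CCAAT box further upstream, and Psmd13 holds it 3 times. Psmb5 holds the antioxidant response element TGACGTCGC from 47 bases before the start. Over all 43 windows the antioxidant response element was found in 14.0%, against 12.4% of all 32851 windows and 14.7% of the 9284 windows of protein coding genes averaging at least 1 RPKM. The CCAAT box was found in 32.6% of the windows of proteasome genes, in 37.4% of all windows and in 37.1% of those of protein coding genes averaging at least 1 RPKM. By family it was found in 8 of 16 windows of the core and in 5 of 18 windows of the regulatory particle. The motif ACTTCCG was picked after these same windows had been read, so its share in them cannot serve as a test. It was found in 34.9% of the windows of proteasome genes, in 6.42% of all windows and in 12.9% of those of the more highly expressed set. By family it was found in 9 of 18 windows of the regulatory particle and in 3 of 16 windows of the core. The site for interferon regulatory factors was found in 5 of the 43 windows, or 11.6%. It was found in 3.44% of all windows and in 2.68% of those of the more highly expressed set. Those 5 belong to Psme1 and Psmg4, which were below control, and to Psmb3, Psmd4 and Psmd9, which were above it. The windows of Psmb8, Psmb9, Psmb10 and Psme2 held no such site. The site for Atf4 was found in 1 window of a proteasome gene, Psmd13, or 2.33%. It was found in 3.95% of all windows and in 2.22% of those of the more highly expressed set. Such a match is a run of letters and says nothing of whether a factor was bound.

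The medians of 5 other lists of the pathway lay between -0.05 and 0.49 on the log2 scale. Of 8 proteasome proteins outside the naming rule none was called, 1 had an unadjusted p below 0.05, and the median log2 fold change was 0.06. Of them 5 were above control and 3 below. Shfm1, with the highest level of that list, was below, at 54.3 RPKM in the controls against 39.7 in the mutants (p = 0.357 in the authors' deposited table). Adrm1, a ubiquitin receptor of the base, was at 1.2 RPKM in the controls against 1.24 in the mutants. The deubiquitinases Usp14 and Uchl5 were at 3.73 and 5.78 RPKM in the controls against 4.15 and 4.67 in the mutants, and Pomp, which completes core assembly, at 26.9 RPKM in the controls against 33.1 in the mutants. Txnl1, a thioredoxin that binds the regulatory particle, had the smallest p of that list, with 7.70 RPKM in the controls against 19.6 in the mutants (p = 0.00836 and, after adjustment, p = 0.142 in the authors' deposited table).

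Of 15 genes that regulate proteasome genes or serve Nfe2l1, 3 were higher and 2 lower at an unadjusted p below 0.05, and the median was 0.18. Maff was called, and it rose from 1.33 to 6.75 RPKM (log2 fold change 2.35 and adjusted p = 0.00157 in the authors' deposited table). Maff codes for a small Maf protein, a type of partner of Nfe2l1 and Nfe2l2 on DNA. Nfe2l1 itself was at 21 RPKM in the controls against 37.1 in the mutants (p = 0.165 in the authors' deposited table), and Nfe2l2 at 6.97 RPKM in the controls against 11.1 in the mutants (p = 0.206 in the authors' deposited table). Below control were Nfya, at 2.33 RPKM in the controls against 1.02 in the mutants (p = 0.0234 in the authors' deposited table), and Nfyc, at 2.81 RPKM in the controls against 1.14 in the mutants (p = 0.0211 in the authors' deposited table). They code for subunits of the factor that binds the CCAAT box. Above control with small p were Mafk, at 3.72 RPKM in the controls against 10.7 in the mutants (p = 0.00249 in the authors' deposited table), and Foxo3, at 2.25 RPKM in the controls against 6.30 in the mutants (p = 0.00326 in the authors' deposited table). None of these 4 was called, and they are named for their p. Protein processing, by which Nfe2l1 is activated, was not measured.

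Of 18 genes of ubiquitin supply none was called, 2 had an unadjusted p below 0.05 with a higher level, and the median was 0.07. The polyubiquitin gene Ubb was at 13.5 RPKM in the controls against 21.7 in the mutants. Uchl1, a ubiquitin hydrolase, was at 4.13 RPKM in the controls against 13.4 in the mutants, with an adjusted p of 0.0508 in the authors' deposited table. Of 16 shuttle factors and genes of the unfoldase VCP and its partners none was called, 1 had an unadjusted p below 0.05, and 14 were above control with a median of 0.49. That 1 was Nploc4, a VCP cofactor, at 4.18 RPKM in the controls against 9.39 in the mutants (p = 0.0205 and, after adjustment, p = 0.242 in the authors' deposited table). Of 12 tested genes of antigen processing none was called, and 7 were below control with a median of -0.05. The smallest p among them was that of Irf1, a transcription factor that drives the inducible subunits, at 3.17 RPKM in the controls against 1.54 in the mutants (p = 0.0482 and, after adjustment, p = 0.389 in the authors' deposited table).

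**Figure D5:**
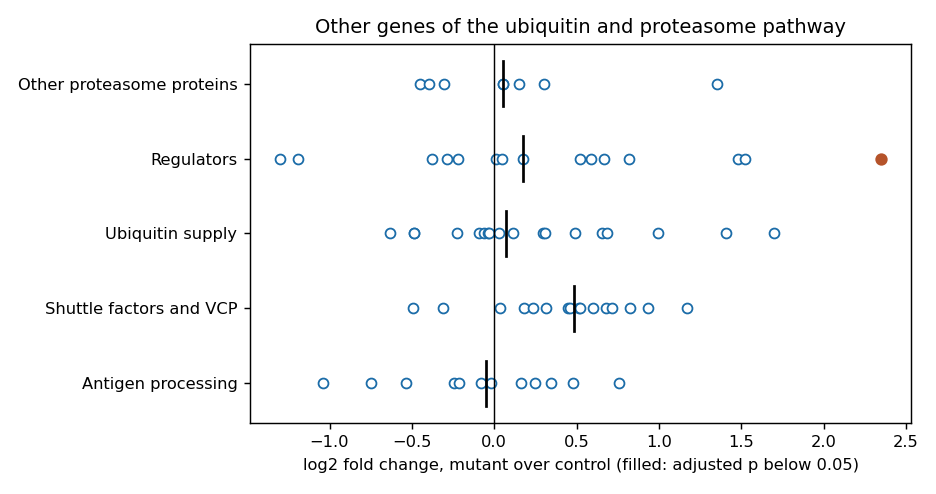
Log2 fold change of the genes in 5 other lists of the pathway, with the median of each list as a black tick and called genes filled. Maff at 2.35 is the single filled point, and the list medians lie between -0.05 and 0.49.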

How the data were processed

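RNA of 4 ventricle samples was sequenced, and a single table of the whole series was used. Per the file headers, the deposited columns are RPKM (1 value by the authors for each group), the ratio of the groups, the log2 of that ratio, and p-values before and after adjustment. Bowtie 0.12.9, DESeq without a version and mm9 stand in the submitters' processing notes, with no role stated; read counter, annotation, strand and handling of repeated matches are not stated. The design written for this work assumed such group values.

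The deposited fold differed from the ratio of RPKM by at most 0.971% where both groups reached 1 RPKM, and Benjamini-Hochberg adjustment of the p-values over 24454 rows differed from the deposited one by at most 0.593%. Genes were called at an adjusted p below 0.05. Read steps came from small RNA rows with reads in 1 group, where all 103 low control and 154 low mutant values lay within 3% of sums of 2 steps. The lower step was taken at the lowest value, and the upper at the most common value between it and about 2 times it. Both steps were chosen from those same rows. Near copies were found with blastn 2.17.0 on GENCODE M21. Code ran in Python 3.11.15 and scipy 1.17.1, and the adjustment and the implied interval were tested on simulated data.

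Members and gene lists were chosen with earlier results of these data known. Named genes were those with an unadjusted p below 0.05, the 2 highest and 2 lowest by fold in each family, all of families with 4 or fewer, the inducible and tissue-specific subunits, called genes and the smallest p of each other list, and fixed regulators; the remaining proteasome genes are given by level, and the near copies, Psmd14 and other rows outside this rule were chosen after their values were seen. Some genes of the fixed lists are not reported here.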

Additional observations from a re-analysis of the deposited data

How the results depend on the processing

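No paired analysis was possible because the table holds 1 value per group; leaving out an animal was likewise not possible, and the depth of each library and the spread between animals were not analysed here. Psmd8 was the called proteasome gene in the authors' deposited table, when the authors' p-values were adjusted over the 11292 rows averaging at least 1 RPKM (adjusted p = 0.0313) and over protein coding rows (adjusted p = 0.0409). At an adjusted p below 0.1 the count of higher genes was 2, with Psma6 added. With a fold of 1.5 or more and no test, in place of the call, 29 genes averaging at least 1 RPKM were higher and 2 lower.

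The median log2 fold change of the regulatory particle lay above 0 with each alternative run (pseudocounts of 1 and 0.1, centring on protein coding rows, a minimum of 1 RPKM, the mean, the split by role, and, chosen after seeing the data, leaving out or adding near copies). That of the core was -0.37 over the inducible and tissue-specific genes alone. That of the activators, over 4 genes, was 0.40 both with a minimum of 1 RPKM and without genes that have a near copy, since both leave out Psme2.

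Of the regulators of proteasome genes, 3 were higher at an adjusted p below 0.1 and 2 when adjusted over rows with at least 1 RPKM; of the ubiquitin supply genes, 1 was higher in each case, Uchl1, with adjusted p = 0.0336 in the latter, from the authors' p-values. Ratios of subunits listed at low levels moved with a pseudocount of 1, and that of Psmb8 to Psmb5 in mutant was 0.227 then. Reads estimated for genes under 1 RPKM ranged from 1 to 168.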

Other observations

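The germ cell gene Sycp3, a protein of the meiotic chromosome axis that was read as a marker beside the testis subunit Psma8, fell from 9.26 to 2.59 RPKM (adjusted p = 0.0332 in the authors' deposited table). The sum of the 3 germ cell markers, 9.40 RPKM in the controls against 2.65 in the mutants, was nearly all Sycp3. Ddx4 and Dazl were near the limit of detection, at 0.111 and 0.0313 RPKM in the controls against 0.0169 and 0.0393 in the mutants. The pseudogene rows Psmb5-ps and Psmb7-ps2 were at 0.448 and 0.317 RPKM in the controls against 1.06 and 0.791 in the mutants, without a call. AL845291.1, a row that overlaps Psmd14 on the same strand over 8908 bases, was at 1.67 RPKM in the controls against 6.09 in the mutants (p = 0.0142 and, after adjustment, p = 0.194 in the authors' deposited table).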
